A study of Mus musculus with 26 samples.

Results

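The expression of 10 secondary granule and late neutrophil genes was described across sorted myeloid progenitors and cultured mast cells of wild-type (WT) mice and of mice lacking neutrophil serine protease 4 (NSP4), the product of Prss57. The 10 genes were taken by name from the 52636 genes listed in the files, and each matched 1 gene: Camp, Ltf, Lcn2, Ngp, Fcnb, Chil3, S100a8, S100a9, Mmp8 and Mmp9. RNA was sequenced from 26 libraries in 6 groups. Granulocyte-macrophage progenitors (GMPs) and common myeloid progenitors (CMPs) were sorted from the bone marrow of female mice, with 4 WT and 4 knockout (KO) libraries of each cell type. Bone marrow-derived mast cells (BMMCs) came from male mice, with 5 WT and 5 KO libraries, and were grown from sorted GMPs in interleukin-3 and stem cell factor. KO stands for mice with a deletion in both copies of Prss57 (labelled NSP4 KO), and WT for mice with the intact gene. The knockout mice were of strain 2 of the study, with a germline deletion of exon 2, which the study used for all work outside 1 set of experiments that did not include sequencing. The age of the mice is not given in the sources used here. The labels give no other allele or treatment for any group. Both progenitor gates took cells with CD117 and CD34 and without SCA-1 or lineage markers, and GMPs had high and CMPs low CD16/32. The lineage antibodies included CD11b and Gr-1, which mark mature neutrophils.

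Neutrophils fill their granules in sequence as they mature. Primary (azurophilic) granules, which hold myeloperoxidase and the serine proteases, form at the promyelocyte stage. Secondary (specific) granules, with lactoferrin and cathelicidin, form at the myelocyte and metamyelocyte stage under the control of the transcription factor C/EBPε, and gelatinase granules follow. GMPs stand before these stages, and CMPs before GMPs.

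All 10 genes are protein coding, and no other annotated gene overlaps any of them in the GENCODE annotation of GRCm38. Camp (chr9:109847379-109849617, minus strand), Ngp (chr9:110419747-110423012, plus strand) and Ltf (chr9:111019271-111042767, plus strand) lie on chromosome 9, as does Mmp8 (chr9:7558456-7568485, plus strand). S100a8 (chr3:90668978-90670035, plus strand) and S100a9 (chr3:90692632-90695721, minus strand) are neighbours on chromosome 3, which also carries Chil3 (chr3:106147554-106167564, minus strand). Lcn2 (chr2:32384633-32388252, minus strand), Fcnb (chr2:28076378-28084885, minus strand) and Mmp9 (chr2:164940780-164955850, plus strand) lie on chromosome 2.

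Promoters of 9 of the 10 genes were found in RefSeq (GRCm38.p6), from 250 bases before to 50 bases after the start site. Those of 6 genes are shown because the results turn on them: Camp, Ngp and Ltf, with some of the widest differences between progenitors in WT, the pair S100a8 and S100a9, and Mmp8, whose pattern stood apart. Each is written 5′ to 3′ on the strand of the gene, with matches on either strand to TTNNGNAA, a loose form of the C/EBP motif, in capitals.
Camp, chr9:109849407-109849706, minus strand: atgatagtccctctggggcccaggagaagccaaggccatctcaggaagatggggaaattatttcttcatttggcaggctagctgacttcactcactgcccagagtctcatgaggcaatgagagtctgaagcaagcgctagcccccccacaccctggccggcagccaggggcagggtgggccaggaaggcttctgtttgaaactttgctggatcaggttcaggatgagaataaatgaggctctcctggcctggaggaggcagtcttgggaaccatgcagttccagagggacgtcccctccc
Ngp, chr9:110419558-110419857, plus strand: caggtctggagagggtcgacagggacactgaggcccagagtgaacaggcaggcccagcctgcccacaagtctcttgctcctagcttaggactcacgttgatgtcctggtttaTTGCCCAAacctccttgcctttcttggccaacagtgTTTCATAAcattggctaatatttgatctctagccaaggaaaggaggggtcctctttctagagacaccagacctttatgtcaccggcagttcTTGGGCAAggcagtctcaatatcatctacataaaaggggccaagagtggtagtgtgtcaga
Ltf, chr9:111019042-111019341, plus strand: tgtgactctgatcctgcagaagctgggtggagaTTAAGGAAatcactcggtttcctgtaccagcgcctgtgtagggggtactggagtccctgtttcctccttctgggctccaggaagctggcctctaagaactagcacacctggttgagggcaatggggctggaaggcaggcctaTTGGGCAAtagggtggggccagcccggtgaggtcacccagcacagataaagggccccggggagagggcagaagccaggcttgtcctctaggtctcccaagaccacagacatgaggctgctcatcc
S100a8, chr3:90668821-90669120, plus strand: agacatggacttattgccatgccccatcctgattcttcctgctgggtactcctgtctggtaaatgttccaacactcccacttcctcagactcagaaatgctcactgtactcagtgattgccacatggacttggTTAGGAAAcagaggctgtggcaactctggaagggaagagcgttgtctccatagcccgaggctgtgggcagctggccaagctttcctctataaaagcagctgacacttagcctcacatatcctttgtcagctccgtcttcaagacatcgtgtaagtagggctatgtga
S100a9, chr3:90695672-90695971, minus strand: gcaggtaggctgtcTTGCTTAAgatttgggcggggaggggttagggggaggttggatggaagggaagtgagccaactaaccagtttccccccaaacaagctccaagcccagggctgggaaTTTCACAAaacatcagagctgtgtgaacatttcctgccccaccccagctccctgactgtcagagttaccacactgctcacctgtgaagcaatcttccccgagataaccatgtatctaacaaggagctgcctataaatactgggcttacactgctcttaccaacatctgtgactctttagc
Mmp8, chr9:7558179-7558478, plus strand: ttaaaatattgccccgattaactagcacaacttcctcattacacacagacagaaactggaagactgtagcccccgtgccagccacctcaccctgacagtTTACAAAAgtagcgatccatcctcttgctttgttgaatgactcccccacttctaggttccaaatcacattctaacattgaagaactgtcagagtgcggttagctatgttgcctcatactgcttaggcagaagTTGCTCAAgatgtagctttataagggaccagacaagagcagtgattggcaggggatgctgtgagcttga
TTNNGNAA was present in 8 of the 9 promoters, all but that of Camp, and in 40.684% of the 32851 promoters of the table. The palindrome TTGCGCAA, which is also a match to TTNNGNAA, was in 0 of the 9 and in 0.183% of all promoters, and TTGCNNCAA was in 0 of the 9 and in 2.079% of all. GAGGAA, the core bound by PU.1, was in the promoters of Lcn2, Ltf, Mmp8 and S100a8 (4 of 9) and in 28.276% of all. The letters AGATAA were in those of Chil3, Ltf and S100a9 (3 of 9; 11.178% of all). The letters TATAAA were in those of Chil3, Mmp8, S100a8 and S100a9 (4 of 9, against 13.616% of all). Counted from the start site, the match began at base -30 in S100a8, -3 in Chil3, 0 in S100a9 and -3 in Mmp8, there on the other strand. All motifs were searched on both strands.

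The GMP libraries held 35501671 to 51497962 counted reads each, the CMP libraries 32078404 to 53264762 and the BMMC libraries 18627626 to 28647216. Prss57 itself followed the genotype labels, with 18064 to 26556 reads in WT GMPs against 6 to 25 in KO GMPs, 2261 to 3926 in WT CMPs against 1 in each KO CMP library, and 2 to 27 in WT BMMCs against 0 in every KO BMMC library. Among the BMMC libraries, KO replicate 3 stood apart, with the highest sum of the 10 mast cell markers (89260 CPM, counts scaled to the same library size, against 32438 to 54861 in the others), and the lowest of the macrophage (644 against 2347 to 3748), dendritic cell (91.3 against 1109 to 2480) and mature neutrophil markers (27.2 against 99.6 to 222.9). The differences between genotypes and the ratios to GMPs are therefore given with and without it. In bulk RNA, fewer cells that express a gene cannot be told apart from less RNA of it per cell.

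Across the cell types, 7 of the 10 genes had their highest mean level in GMPs and 3, Chil3, Mmp8 and Mmp9, in BMMCs, in both genotypes. Levels are normalized RPKM (nRPKM), read counts scaled to gene length and library size, which allow genes to be compared per length. The 10 genes together took 0.124% to 0.232% of the reads of WT GMP libraries and 0.0673% to 0.367% of those of KO GMP libraries, against 0.00131% to 0.00586% in CMPs and 0.0182% to 0.213% in BMMCs (0.0752% to 0.213% without KO BMMC replicate 3). The order of the means was GMP, CMP, BMMC for Camp and Fcnb in both genotypes, and for S100a8 in KO, and GMP, BMMC, CMP for Ltf, Lcn2, Ngp and S100a9 and for S100a8 in WT. It was BMMC, GMP, CMP for Chil3, Mmp8 and Mmp9, with every BMMC library above every progenitor library of its genotype. The KO orders were the same without KO BMMC replicate 3. Some neighbours in these orders did not differ beyond their spread. The ranges of the CMP and BMMC libraries overlapped for Ngp and S100a8 in both genotypes and for Ltf, Fcnb and S100a9 in KO, those of GMPs and CMPs for Mmp8 in WT, and those of GMPs and BMMCs for Lcn2 in KO. BMMCs and progenitors differed in sex and sequencing run, so cell type cannot be told apart from these, and levels across them are given with no test. Marker sums differed as well. Mast cell sums were 32438 to 89260 CPM in BMMCs and 340 to 1754 in progenitors. Macrophage sums were 644 to 3748 and 178 to 614, and dendritic cell sums 91.3 to 2480 and 68.7 to 326. The part of macrophages and dendritic cells in the BMMC levels was not tested.

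**Figure D1:**
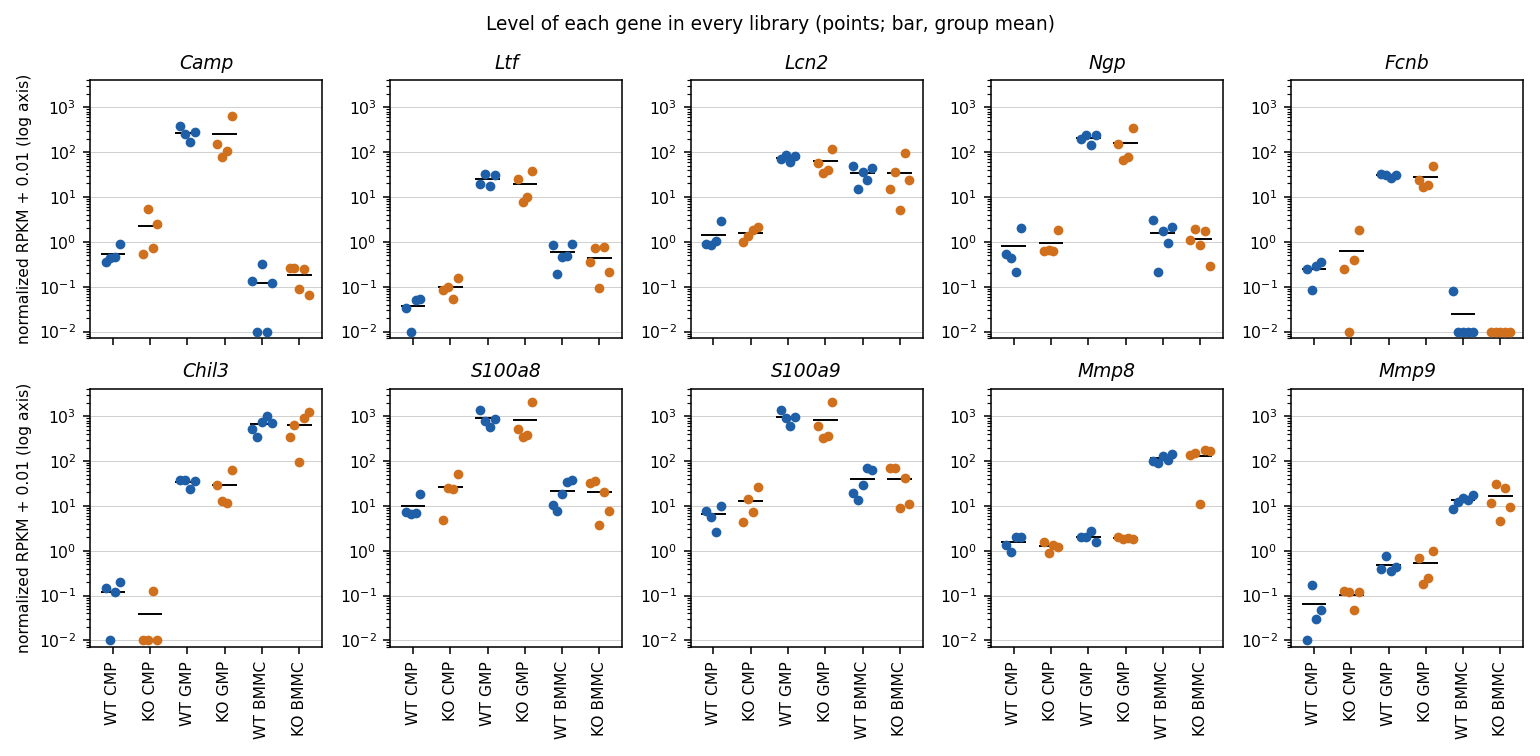
Level of each of the 10 genes in every library, in nRPKM on a log axis after 0.01 was added, for WT (blue) and KO (orange) CMPs, GMPs and BMMCs; each point is 1 library. Of the 10 genes, 7 were highest in GMPs, and Chil3, Mmp8 and Mmp9 were highest in BMMCs.

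GMPs were compared with CMPs to place these genes along the progenitor series. Of the 10 genes, 8 were higher in GMPs in WT and the same 8 in KO, by 54.1-fold or more in WT (edgeR quasi-likelihood test, Benjamini-Hochberg adjusted p under 0.01 and at least 2-fold). The exceptions in both genotypes were the metalloproteinases Mmp8 and Mmp9. In WT, 12.8% of the 14967 genes tested were called and 6.28% were called higher in GMPs. In KO, 8.42% of 14959 were called and 4.04% were called higher. The median log2 fold change of the 10 genes was 7.13 in WT and 5.80 in KO, against -0.02 and -0.03 over all genes tested. Ltf and Chil3 were too low in CMPs to be tested there alone and entered this comparison through GMPs, so their call was fixed by their level in GMPs. Without them, 6 of 8 genes were called in each genotype, with a median of 6.78 in WT and 5.42 in KO. Beside these genes, other lineage markers moved. The sums of the 6 eosinophil markers were 1303 to 4461 CPM in GMPs and 2.99 to 86.4 in CMPs, those of the 3 basophil markers 2028 to 3150 and 28.1 to 65.1, and those of the 5 megakaryocyte markers 104 to 212 and 1260 to 2103. Of the eosinophil markers, 5 lay above 0 and 1 below 0 in each genotype (log2 fold change -1.27 in WT and -1.28 in KO, not called). The 7 mature neutrophil markers, 6 of which also stand in the list of other granule genes described later, summed to 136 to 195 CPM in GMPs and 45.5 to 114 in CMPs, where Ly6g, Mmp25 and Retnlg were each under 1 CPM. They did not all move together: in WT GMPs Il1b was the marker under 1 CPM and was lower than in WT CMPs (log2 fold change -3.82, edgeR adjusted p = 0.000378). The part of these other cells in the result was not tested. Fcgr3, which encodes CD16 of the sort gate, was higher in GMPs, by 3.79 on the log2 scale in WT and 3.14 in KO.

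Camp encodes the cathelicidin precursor, an antimicrobial peptide of secondary granules, and Ngp a cathelicidin-related granule protein. Camp was at 0.340, 0.436, 0.458 and 0.874 nRPKM in WT CMP replicates 1 to 4 and at 377, 248, 167 and 286 in WT GMPs. In KO, it was at 0.525, 5.403, 0.705 and 2.46 in CMPs and at 155, 76.5, 107 and 655 in GMPs. Every GMP library was above every CMP library of its genotype, with KO GMP replicate 4 the highest and KO CMP replicate 2 the highest CMP library. The log2 fold change was 9.04 ± 0.36 (SE, n = 4 per group) in WT (edgeR adjusted p = 4.14e-07) and 6.91 ± 1.05 in KO (edgeR adjusted p = 0.00191), and 5.78 in KO without GMP replicate 4. Ngp was at 0.527, 0.430, 0.207 and 2.03 nRPKM in WT CMPs and 201, 239, 145 and 238 in WT GMPs. The KO libraries held it at 0.614, 0.641, 0.625 and 1.79 in CMPs and 151, 67.0, 79.8 and 345 in GMPs. CMP replicate 4 was the highest of the CMP libraries in each genotype and lay far below all GMP libraries. Its log2 fold change was 8.10 ± 0.60 in WT (edgeR adjusted p = 5.70e-06), or 9.11 without WT CMP replicate 4, and 7.50 ± 0.73 in KO (edgeR adjusted p = 2.12e-04), or 6.81 without KO GMP replicate 4.

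Ltf encodes lactoferrin, which binds iron, and Lcn2 encodes lipocalin-2, which binds bacterial siderophores. Ltf had between 0 and 7 reads in WT CMP libraries and was at 0.0230, 0, 0.0395 and 0.0438 nRPKM there, against 19.6, 33.1, 17.6 and 30.6 in WT GMPs. In KO it was at 0.0765, 0.0890, 0.0436 and 0.149 in CMPs and 24.5, 7.58, 10.0 and 37.1 in GMPs. The groups did not overlap. Its log2 fold change was 9.87 ± 0.45 in WT (edgeR adjusted p = 5.13e-07) and 7.88 ± 0.68 in KO (edgeR adjusted p = 1.31e-04). Ltf entered this comparison through GMPs, which fixed its call, so these p-values are not read as a test. Lcn2 was higher in CMPs than Ltf, at 0.891, 0.850, 1.05 and 2.84 nRPKM in WT and 1.00, 1.32, 1.85 and 2.10 in KO. In GMPs it was at 71.8, 85.2, 58.8 and 79.9 in WT and 56.3, 34.99, 39.0 and 118 in KO. WT CMP replicate 4 was the highest CMP library and KO GMP replicate 2 the lowest GMP library, and they did not overlap. GMPs exceeded CMPs by 5.76 ± 0.39 on the log2 scale in WT (edgeR adjusted p = 3.14e-06) and 5.34 ± 0.48 in KO (edgeR adjusted p = 1.49e-04).

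Fcnb encodes ficolin-B, a lectin that recognizes sugars on microbes, and Chil3 a chitinase-like lectin (Ym1). Fcnb was at 0.244, 0.0738, 0.276 and 0.354 nRPKM in WT CMPs and 32.6, 31.1, 26.5 and 30.7 in WT GMPs, where it varied least of the 10 genes. The KO levels were 0.232, 0, 0.382 and 1.85 in CMPs and 23.8, 17.02, 18.5 and 49.7 in GMPs, with replicate 4 the highest in both. The log2 fold change was 7.02 ± 0.31 in WT (edgeR adjusted p = 5.13e-07) and 5.50 ± 0.93 in KO (edgeR adjusted p = 0.00323). Without KO CMP replicate 4 the KO value was 6.91, and without KO CMP replicate 3 it was 5.32 and no longer called (edgeR adjusted p = 0.0168). Chil3 was at 0.139, 0, 0.113 and 0.191 nRPKM in WT CMPs (0 to 12 reads) and 36.8, 37.8, 23.7 and 35.3 in WT GMPs. In KO CMPs it had 12 reads in replicate 3 (0.119 nRPKM) and 0 in the others, against 28.4, 12.5, 11.6 and 63.8 nRPKM in KO GMPs. The groups did not overlap in either genotype. The log2 fold change was 8.28 ± 0.45 in WT (edgeR adjusted p = 1.09e-06) and 9.56 ± 1.05 in KO (edgeR adjusted p = 3.63e-04). Chil3 also entered through GMPs, which fixed its call, so these p-values are not read as a test. The KO value rests on the 12 reads of replicate 3: without this library every KO CMP library was at 0 and the fitted value (14.08) depends on the prior count. The related genes took few of these reads. Chil4 had 2 to 31 reads in BMMC libraries, where Chil3 had 2463 to 44693, and Fcna, the paralog of Fcnb, was lower in WT GMPs than in WT CMPs (log2 fold change -2.17, edgeR adjusted p = 0.00555).

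S100a8 and S100a9 encode the subunits of calprotectin, a calcium- and zinc-binding protein of the neutrophil cytosol, and were the most abundant of the 10 in GMPs. S100a8 was at 7.46, 6.72, 6.92 and 18.1 nRPKM in WT CMPs and 1340.3, 779, 582 and 866 in WT GMPs. In KO it was at 4.85, 24.6, 23.4 and 50.1 in CMPs and 519, 347, 387 and 2054 in GMPs. The lowest GMP library was far above the highest CMP library in each genotype. On the log2 scale the difference was 6.53 ± 0.43 in WT (edgeR adjusted p = 2.97e-06) and 5.05 ± 0.86 in KO (edgeR adjusted p = 0.00328). The KO value was 4.08 without KO GMP replicate 4, and 5.02 and no longer called without KO CMP replicate 3 (edgeR adjusted p = 0.0159). S100a9 was at 7.56, 5.66, 2.66 and 10.2 nRPKM in WT CMPs and 1358, 926, 599.5 and 961 in WT GMPs. Its KO levels were 4.31, 14.1, 7.14 and 25.7 in CMPs and 614, 319, 366 and 2064 in GMPs. KO GMP replicate 4 and KO CMP replicate 4 were again the highest of their groups, and the groups did not overlap. The log2 fold change was 7.24 ± 0.44 in WT (edgeR adjusted p = 1.93e-06) and 6.09 ± 0.86 in KO (edgeR adjusted p = 0.00123), or 5.15 without KO GMP replicate 4. The ratio of the S100a9 level to the S100a8 level was 0.919 to 1.19 in GMP libraries, 0.305 to 1.01 in CMP libraries and 1.41 to 2.37 in BMMC libraries.

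Mmp8 encodes the neutrophil collagenase, stored in secondary granules, and Mmp9 gelatinase B, the enzyme that names the gelatinase granules. Mmp8 was at 1.34, 0.906, 2.06 and 2.003 nRPKM in WT CMPs and 1.97, 2.002, 2.69 and 1.57 in WT GMPs, and the groups overlapped. In KO it was at 1.56, 0.866, 1.34 and 1.22 in CMPs and 2.04, 1.81, 1.92 and 1.85 in GMPs, where they did not overlap in nRPKM but did in CPM. This was a log2 fold change of 0.40 ± 0.28 in WT (edgeR adjusted p = 0.281) and 0.65 ± 0.23 in KO (edgeR adjusted p = 0.0710). Mmp9 was lower, at 0, 0.165, 0.0199 and 0.0386 nRPKM in WT CMPs and 0.375, 0.733, 0.336 and 0.417 in WT GMPs. The KO levels were 0.116, 0.112, 0.0385 and 0.108 in CMPs and 0.663, 0.173, 0.242 and 0.996 in GMPs. Every GMP library was above every CMP library of its genotype, with the smallest gap between KO GMP replicate 2 and KO CMP replicate 1. The log2 fold change was 3.05 ± 0.80 in WT (edgeR adjusted p = 0.0136), or 4.59 and called without WT CMP replicate 2 (edgeR adjusted p = 0.00173), and 2.52 ± 0.63 in KO (edgeR adjusted p = 0.0216). At an adjusted p under 0.05 with no fold limit, a looser rule that 37.8% of genes passed in WT and 21.5% in KO, Mmp9 was called in both genotypes and Mmp8 in neither.

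**Figure D2:**
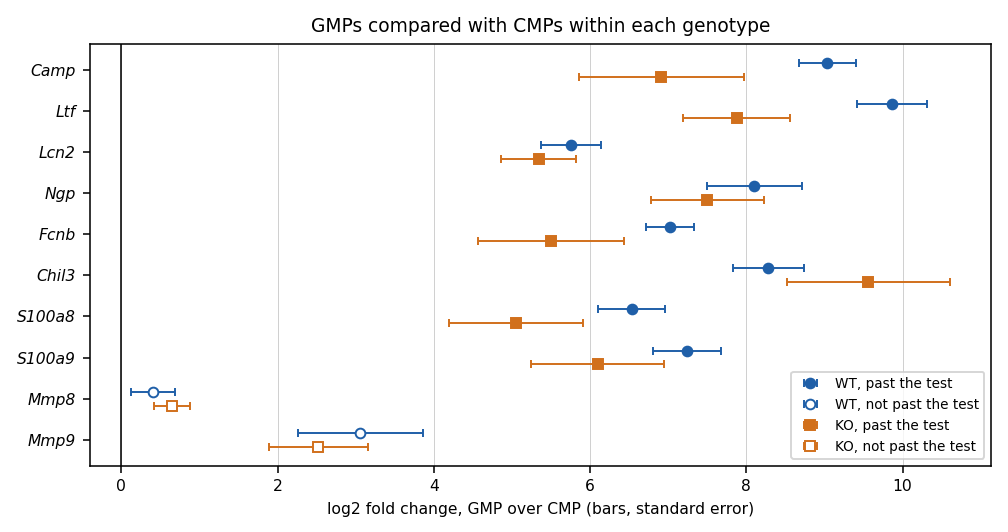
Log2 fold change of GMPs over CMPs for the 10 genes in WT (blue) and KO (orange), from edgeR with 4 libraries per group; points are the fitted values, bars are standard errors, and open symbols mark genes that were not called. Of the 10 genes, 8 lay above 5 in both genotypes, Mmp9 at 3.05 and 2.52, and Mmp8 at 0.40 and 0.65. Ltf and Chil3 entered the comparison through GMPs, which fixed their call.

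Other genes of the granulocyte series were taken from 3 lists. Of 35 other granule and late neutrophil genes, 32 were tested in WT and 23 were called higher in GMPs and 0 lower, with a median log2 fold change of 2.82. In KO, 32 were tested and 15 were called higher and 0 lower, with a median of 2.08. Over all genes tested, 6.28% were called higher in GMPs in WT and 4.04% in KO. Of the 32, 8 did not pass the filter in CMPs alone and entered through GMPs, which fixed their direction. Among the other 24, a restriction chosen after the data were seen, 15 were called higher in WT (median 1.88) and 11 in KO (median 1.61). The largest fitted differences in WT were those of Itgb2l, an integrin β2-like subunit, Chil1, another chitinase-like protein, Olfm4, a protein of a subset of neutrophils, and Cd177, a neutrophil surface protein. Itgb2l, Chil1 and Olfm4 had 0 reads in every WT CMP library and entered through GMPs, which fixed their direction. Taking 3 reads per library as the floor, they were at least 69.9-fold, 41.3-fold and 14.3-fold higher in WT GMPs. Olfm4 was also at 0 in all KO CMPs and at least 14.3-fold higher in KO GMPs. In KO, Itgb2l had 51 to 269 reads in GMP libraries against 0 to 7 in CMP libraries, and Chil1 38 to 139 against 0 to 3. Cd177 rose by 7.91 on the log2 scale in WT (edgeR adjusted p = 4.53e-06) and 5.88 in KO (edgeR adjusted p = 0.000294). Of the 9 genes in the primary granule list, 7 were called higher in WT (median 2.26) and 5 in KO (median 1.76). Not all of these 9 encode granule contents. Elane, neutrophil elastase, rose by 3.72 in WT and 2.91 in KO, Gstm1, a glutathione S-transferase, by 3.54 and 3.23, Ms4a3, a membrane protein of granulocyte precursors, by 3.23 and 2.35, and Mpo, myeloperoxidase, by 2.29 and 2.07. Of 11 regulators of granule gene transcription, 6 were called higher and 1 lower in each genotype. Cebpe, which encodes C/EBPε, rose by 4.15 in WT (edgeR adjusted p = 1.69e-05) and 3.29 in KO (edgeR adjusted p = 0.00212). Gfi1, a repressor needed for neutrophil maturation, rose by 2.81 and 2.39, and Cebpb by 2.33 and 2.33. Gata1, a regulator of the erythroid and megakaryocyte lineages, was lower in GMPs, with a log2 fold change of -3.06 in WT and -2.92 in KO.

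KO was compared with WT within each cell type, to ask what the loss of NSP4 changed. In GMPs, 0 of the 10 genes were called (edgeR, adjusted p = 0.99995 for each; 0 also at an unadjusted p under 0.05, and 0 with limma voom and DESeq2). Over all genes 0.00681% were called, which is 1 gene, Prss57, of 14689, and 119 (0.81%) had an unadjusted p under 0.05. The log2 fold changes of the 10 genes lay between -0.35 and 0.15 with a median of -0.17, and 9 of 10 were below 0. The intervals were wide for most of them. For Camp (377, 248, 167 and 286 nRPKM in WT against 155, 76.5, 107 and 655 in KO) the 95% interval was -1.43 to 1.20, for S100a8 -1.29 to 1.08 and for S100a9 -1.38 to 1.01, while for Mmp8 it was -0.51 to 0.29. For 9 of the 10 genes, every WT library lay within the range of the KO libraries. Mmp8 was the exception, with the KO libraries inside the WT range. All genes but Mmp8 moved together over these libraries, as given below, so such counts are not of separate observations. The matching shares over all genes are not given here.

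The KO GMP libraries differed widely among themselves. KO GMP replicate 4 was the highest of the KO GMP libraries for 9 of the 10 genes and replicate 2 the lowest for 9, and in WT replicate 3 was the lowest for 9. Since most of these genes moved together, the ranks and signs in this paragraph do not count separate observations, and their shares over all genes are not given. S100a9, for example, was at 614, 319, 366 and 2064 nRPKM in KO and 1358, 926, 599.5 and 961 in WT, or 841 ± 826 and 961 ± 311 (mean ± SD, n = 4). The SD of log2 CPM over the KO GMP libraries was 0.71 to 1.37 for the 9 genes other than Mmp8, higher than in 91.7% to 98.6% of the 14689 genes tested, whose median was 0.24. For Mmp8 it was 0.06, higher than in 4.75% of genes. In WT GMPs the SD of the 10 genes was 0.13 to 0.50, against a median of 0.26. The sign of the genotype difference depended on the library left out. Without KO GMP replicate 2 or 3, 6 of the 10 log2 fold changes were above 0, with medians of 0.043 and 0.041. Without KO GMP replicate 4, all 10 were below 0, between -1.25 and -0.10 with a median of -0.89, and 0 were called (edgeR adjusted p = 0.993). KO GMP replicate 4 also had the highest sum of eosinophil markers, 4461 CPM against 1303 to 2634 in the other GMP libraries. Its mature neutrophil markers, at 149.9 CPM, were the lowest of the KO GMP libraries (195, 167 and 173 CPM in replicates 1 to 3). The WT GMP libraries held 136 to 183 CPM of these. The part of other cells in this spread was not tested.

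**Figure D3:**
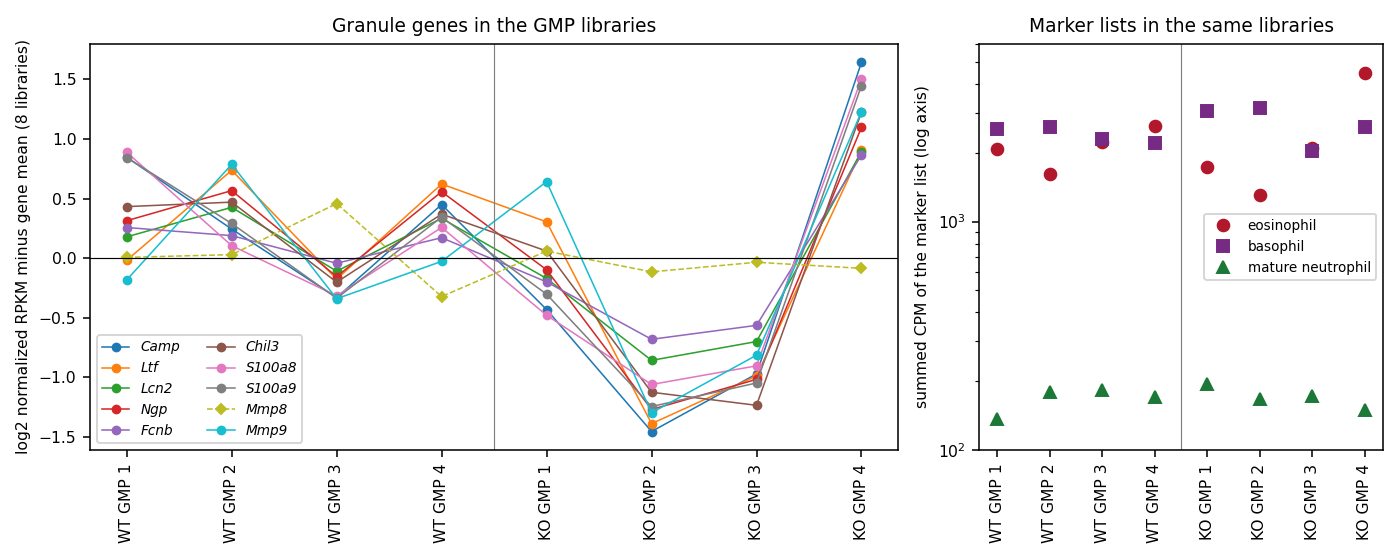
Left, log2 nRPKM of each of the 10 genes minus its mean over the 8 GMP libraries, where each line joins the points of 1 gene and carries no order; right, summed CPM (log axis) of the eosinophil, basophil and mature neutrophil marker lists in the same libraries. KO replicate 4 was the highest KO library and KO replicate 2 the lowest for 9 of the 10 genes, Mmp8 (dashed) varied little in KO, and KO replicate 4 had the highest eosinophil sum, 4461 CPM.

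Across the 8 GMP libraries, after the mean of each genotype was removed, 9 of the 10 genes followed the mean of the standardized levels of all 10 with r between 0.91 and 0.98, and Mmp8 with r = -0.08. This mean includes the genes themselves. The mean standardized level was 0.20, -1.12, -0.80 and 1.72 in KO replicates 1 to 4 and 0.15, 0.22, -0.34 and -0.03 in WT replicates 1 to 4, so the widest departures were those of KO replicates 4, 2 and 3. Among 8875 genes with a mean of at least 10 CPM, the 5 other genes most like this mean were Cd177 (r = 0.96), Plpp6 (0.95), Mkrn1 (0.94), Zfp189 (0.94) and Gm10232 (0.93), over the same 8 libraries. These share the sort gate and the sequencing run.

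In CMPs, 0 of the 8 genes tested were called between KO and WT (edgeR adjusted p = 0.99993 for each; 2 at an unadjusted p under 0.05, and 0 called with limma voom and DESeq2). Over all genes 0.0067% were called, 1 of 14916, and 76 (0.51%) had an unadjusted p under 0.05, among them Camp (edgeR unadjusted p = 0.0200) and S100a8 (edgeR unadjusted p = 0.0478). Camp was at 0.340, 0.436, 0.458 and 0.874 nRPKM in WT and 0.525, 5.403, 0.705 and 2.46 in KO, with a log2 fold change of 2.05 ± 0.73 (SE). It was 1.19 without KO CMP replicate 2, the highest of the KO libraries for this gene, and KO replicates 1 and 3 lay within the range of WT. S100a8 was at 7.46, 6.72, 6.92 and 18.1 in WT and 4.85, 24.6, 23.4 and 50.1 in KO, with a log2 fold change of 1.37 ± 0.60, or 0.83 without KO CMP replicate 4. The other 6 tested genes lay between -0.35 for Mmp8 and 1.35 for Fcnb, which was at -0.13 without KO CMP replicate 4. The ranges of WT and KO overlapped for all 10 genes in nRPKM and for 9 in CPM. The matching shares over all genes are not given here. For Ltf the ranges met in nRPKM (highest WT value 0.0438, lowest KO value 0.0436) and did not overlap in CPM (0.146 and 0.150). Ltf and Chil3 passed no filter in CMPs: Ltf was at 0.0230, 0, 0.0395 and 0.0438 nRPKM in WT and 0.0765, 0.0890, 0.0436 and 0.149 in KO, and Chil3 at 0.139, 0, 0.113 and 0.191 in WT and 0, 0, 0.119 and 0 in KO. The difference of the genotype effect between GMPs and CMPs was called for 0 of the 8 genes that passed the filter in CMPs, with limma voom and DESeq2 as well, against 0% of 15900 genes in edgeR. At an unadjusted p under 0.05 there were 169 genes (1.06%) and 0 of these 8. The largest difference among them was that of Camp, -2.13 ± 1.04 on the log2 scale (edgeR adjusted p = 0.999888). Ltf and Chil3 entered that fit through GMPs, and their differences were not read as a test. Of all 10 genes, 1 had an unadjusted p under 0.05 in that fit (edgeR), and it belonged to this pair.

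Of the BMMC levels, that of Chil3 was the highest. Chil3 was at 508, 339.6, 756, 1002 and 705 nRPKM in WT BMMC replicates 1 to 5 and 344, 632, 93.5, 922 and 1208 in KO, where replicate 3 was the lowest of all BMMC libraries. The mean was 19.8 times that of GMPs in WT and 21.99 times in KO, or 26.7 times without KO BMMC replicate 3 and 36.5 times without KO GMP replicate 4. Mmp8 was at 99.97, 90.6, 129, 108 and 145 in WT and 134, 151, 11.1, 178 and 169 in KO, and its mean was 55.7 times that of GMPs in WT and 67.5 times in KO (82.9 without KO BMMC replicate 3). Apart from KO replicate 3, all BMMC libraries held Mmp8 at 90.6 nRPKM or more. Mmp9 was at 8.71, 12.5, 15.3, 13.7 and 17.6 in WT and 11.5, 31.0, 4.53, 24.4 and 9.45 in KO, and its mean was 29.2 times that of GMPs in WT and 31.2 times in KO (36.8 without KO BMMC replicate 3). The KO libraries were the more widely spread, with the WT libraries inside their range.

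The other genes were lower in BMMCs than in GMPs. Lcn2 was the nearest, at 48.4, 15.2, 36.4, 23.6 and 45.2 nRPKM in WT and 14.8, 36.1, 5.05, 95.0 and 24.2 in KO. The mean in GMPs was 2.19 times as high in WT and 1.77 times in KO, or 3.096 times without KO BMMC replicate 4 and 1.46 times without KO BMMC replicate 3, and the libraries of GMPs and BMMCs overlapped in KO but not in WT. S100a8 was at 10.4, 7.56, 18.3, 34.6 and 37.1 in WT and 33.1, 35.5, 3.73, 20.5 and 7.79 in KO, and S100a9 at 19.7, 13.7, 29.5, 70.3 and 63.0 and 69.9, 70.0, 8.84, 42.3 and 10.9998. Both genes were low in KO replicates 3 and 5 and in WT replicates 1 and 2. Ngp was at 2.99, 0.206, 1.71, 0.921 and 2.08 in WT and 1.10, 1.90, 0.861, 1.69 and 0.272 in KO, and Ltf at 0.831, 0.180, 0.459, 0.482 and 0.893 and 0.343, 0.726, 0.0835, 0.739 and 0.208. Camp had 0 to 6 reads per BMMC library. Fcnb had 2 reads in WT replicate 1 and 0 in each of the other 9 BMMC libraries, where a count of 0 allows up to 3 reads.

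Between KO and WT BMMCs, 0 of the 8 genes tested were called (edgeR adjusted p = 0.999877 for each; 0 at an unadjusted p under 0.05, and 0 with limma voom and DESeq2), against 0% of 13938 genes, of which 332 (2.38%) had an unadjusted p under 0.05. Camp and Fcnb were too low to be tested. The log2 fold changes lay between -0.45 for Ngp and 0.25 for Mmp9. For Chil3 the value was -0.05 ± 0.56 (SE, n = 5 per group) with a 95% interval of -1.30 to 1.19, for Mmp8 0.16 ± 0.53 with an interval of -1.03 to 1.35 and for Mmp9 0.25 ± 0.45 with an interval of -0.75 to 1.25. KO replicate 3 was the lowest KO library for 7 of the 10 genes. Without it, the values lay between -0.36 and 0.49, with Mmp8 at 0.46 and Mmp9 at 0.49, and 0 were called (edgeR adjusted p = 0.581 and 0.804 for these). The lower macrophage, dendritic cell and neutrophil marker sums of that library are given above, and their part in these values was not tested. In WT, replicate 2 was the lowest for 7.

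**Figure D4:**
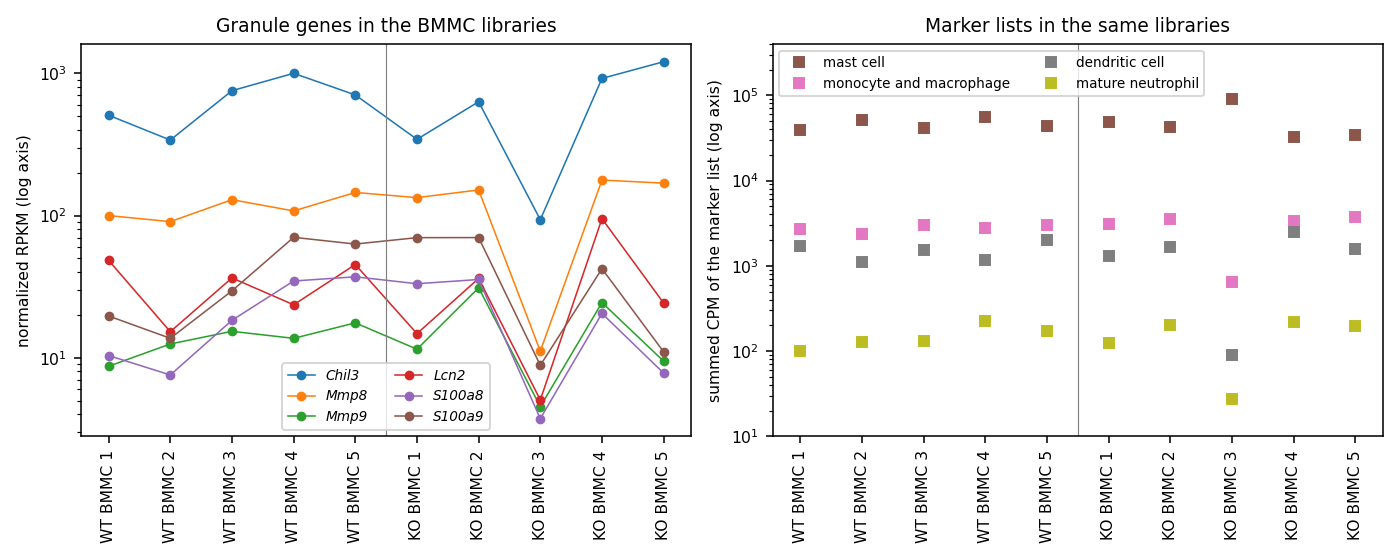
Left, nRPKM (log axis) of Chil3, Mmp8, Mmp9, Lcn2, S100a8 and S100a9 in the 5 WT and 5 KO BMMC libraries, where each line joins the points of 1 gene and carries no order; right, summed CPM (log axis) of 4 marker lists in the same libraries. KO replicate 3 was the lowest for all 6 genes, and had the highest mast cell sum, 89260 CPM, and the lowest sums of the other 3 lists.

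The 3 lists of other granulocyte genes held no call between KO and WT in edgeR. Of the other granule and late neutrophil genes, 0 of 33 were called in GMPs, 0 of 24 in CMPs and 0 of 32 in BMMCs. Of the primary granule list, 0 of 9, 0 of 9 and 0 of 8 were called, and of the regulators 0 of 11 in each cell type. At an unadjusted p under 0.05 these lists held 0 genes in GMPs and CMPs, and 2 other granule genes and 1 gene of the primary granule list in BMMCs.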

How the data were processed

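Total RNA libraries (stranded, single-end, 50 bp) were sequenced on an Illumina instrument. Per the labels and the study's methods, the authors aligned reads to GRCm38 with GSNAP and counted unique reads in exons. The deposited files hold, per gene and library, raw counts and, per the file headers, RPKM adjusted by size factors (nRPKM). Levels were read from nRPKM, and tests used the counts. edgeR 4.0.16 (R 4.3.3; TMM, filterByExpr, quasi-likelihood test) was fitted over all genes of the groups compared, with Benjamini-Hochberg adjustment, and a gene was called at adjusted p under 0.01 and at least 2-fold (the genotype by cell type difference at adjusted p alone). The study used limma voom, tried here (limma 3.58.1) as an alternative beside DESeq2 1.42.0. The spread between libraries is the SD of log2 CPM (prior 2). All 10 members were named, and from each other list the called genes, up to 4 by the largest fold. The members and lists were chosen with earlier results of these data known. The study describes the libraries as biological replicates, and p-values measure the spread between them. Replicate numbers were not used as pairs in the tests, outside a replicate block tried as an alternative, and the tests take the libraries as independent. Whether same-numbered GMP and CMP libraries came from the same mice was not known. Gene symbols came from GENCODE release 21 of the mouse, for 52489 of 52636 genes, which held 99.99% of reads. The scripts were tested on simulated counts. In no group did a pair of libraries agree within sampling noise (smallest chi-square per degree of freedom 9.61).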

Additional observations from a re-analysis of the deposited data

Results flagged for a closer look

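In 10 of the 59 gene and group combinations that had any reads, 1 library lay far from the others by Dixon's criterion (95% level). Chance would meet it in about 1 of 20 groups of independent, normally distributed values. The nRPKM values of these genes moved together, so the 10 cannot be set against that rate. Where all other libraries of a group were at 0, as for Chil3 and Fcnb below, any reads meet the criterion. In KO GMPs replicate 4 stood above the others for Camp (654.612 nRPKM, others 76.5 to 155), S100a8 (2054.01, others 347 to 519) and S100a9 (2064.38, others 319 to 614). In WT CMPs replicate 4 stood above the others for Lcn2 (2.84204 nRPKM, others 0.850 to 1.05) and S100a8 (18.1219, others 6.72 to 7.46), and in KO CMPs replicate 4 did so for Ngp (1.79007, others 0.614 to 0.641). In KO CMPs replicate 3 was the only library with reads of Chil3 (12 reads, 0.119073 nRPKM), and it was the lowest for Mmp9 (8 reads, 0.0384783 nRPKM, others 0.108 to 0.116). In KO BMMCs replicate 3 had Mmp8 at 11.1335 nRPKM, against 134 to 178 in the other 4. WT BMMC replicate 1 was the only BMMC library with reads of Fcnb (2 reads, 0.0720902 nRPKM).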

How the results depend on the processing

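Between genotypes, 0 of the 10 genes were called in any cell type, or in the difference between GMPs and CMPs, under any alternative run (RLE size factors, no filter, limma voom with and without quality weights, DESeq2, a fit of all 26 libraries, a replicate block, leaving out each library, or adjusted p under 0.05 with no fold limit). Between GMPs and CMPs, 8 to 9 of the 10 were called in WT and 6 to 9 in KO, where the lowest count was without KO CMP replicate 3. These counts include Ltf and Chil3, whose call was fixed by their level in GMPs. Mmp9 decided the upper bound: in WT it was called at adjusted p under 0.05, with no filter, with limma voom, with quality weights, with DESeq2, in the fit of all libraries and with the replicate block, and in KO at adjusted p under 0.05, with DESeq2 and in the fit of all libraries. Counts over all genes moved more. Between GMPs and CMPs in WT they went from 1918 to 5664 at adjusted p under 0.05, 3392 with quality weights and 1542 to 2515 when 1 library was left out. In KO they went from 1259 to 3222, 2533 with quality weights, 2156 with DESeq2, 2307 in the fit of all 26 libraries (871 higher and 1436 lower, against 604 and 655) and 785 to 2266 when 1 library was left out. Between genotypes they went from 1 to 2 in GMPs (adjusted p under 0.05, quality weights, DESeq2, and 1 to 2 when 1 library was left out) and from 1 to 2 (quality weights) or 3 (DESeq2) in CMPs. The cause was not tested. Reversals of sign were confined to genes that were called under neither setting. In GMPs Mmp9 was at -0.19 with voom, -0.75 with quality weights and -0.056 with the replicate block. In BMMCs, with voom, Lcn2 was at -0.33, S100a9 at -0.15 and Mmp8 at -0.34, with quality weights Lcn2 was at -0.057, Chil3 at 0.0023 and S100a8 at 0.17, and with the replicate block Lcn2 was at -0.45, S100a9 at -0.20 and Mmp8 at -0.093. The difference between GMPs and CMPs was -0.84 for Chil3 and -0.10 for Mmp8 with quality weights. When 1 library was left out, the genotype difference in GMPs ran from -1.25 to 0.19 for Camp, -0.61 to 0.027 for Fcnb, -0.93 to 0.076 for Chil3, -1.09 to 0.17 for S100a8, -1.15 to 0.091 for S100a9, -0.21 to 0.055 for Mmp8 and -0.37 to 0.46 for Mmp9. In CMPs it ran from -0.042 to 0.72 for Lcn2, -0.34 to 1.21 for Ngp and -0.13 to 1.75 for Fcnb, and in BMMCs from -0.76 to 0.33 for Lcn2, -0.41 to 0.23 for Chil3, -0.40 to 0.19 for S100a8, -0.25 to 0.35 for S100a9 and -0.12 to 0.49 for Mmp9. Same-numbered libraries did not deviate together in every pair of any comparison (r from -0.31 to 0.18 between KO and WT GMPs). Between GMPs and CMPs, r ran from -0.0011 to 0.27 in WT and 0.012 to 0.53 in KO. The mean over same-numbered pairs was 0.13 in WT and 0.18 in KO, against -0.047 and -0.059 over other pairs. A GMP library correlated best with the CMP library of its own number in 1 of 4 pairs in each genotype. Between KO and WT, a library correlated best with its own number in 1 of 4 pairs in GMPs, 1 of 5 in BMMCs and 3 of 4 in CMPs. With the replicate block 2000 genes were called between GMPs and CMPs in WT and 1311 in KO, with 9 and 8 of the 10 genes. Fcnb and Camp in BMMCs and Ltf and Chil3 in CMPs had too few reads for a test at the depth of these libraries, and counts cover sampling error only.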
